A study of Mus musculus with 9 samples.

Results

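Adrenergic and muscarinic signalling genes were followed across 3 stages of the mouse heart around birth. The set holds 9 genes of the 48820 in the table of fragments per kilobase and 1e6 mapped fragments (FPKM), found by their gene symbols. It covers the beta-1 adrenergic receptor Adrb1, the alpha-1 adrenergic receptors Adra1a and Adra1b, the M2 muscarinic receptor Chrm2, the adenylyl cyclases Adcy5 and Adcy6, the anchoring protein Akap6, the phosphodiesterase Pde4d and the phosphatase inhibitor Ppp1r1a. The study collected hearts of wild-type C57BL/6J mice at embryonic day 18.5 (E18.5d), postnatal day 1 (P1d) and postnatal day 7 (P7d) to follow gene expression through the perinatal period, and sequenced the mRNA of 3 hearts per stage. No agent was given to any animal and all are labelled male. Whole hearts were measured, so fewer cells of a type and less RNA per cell cannot be told apart.

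The sympathetic and the vagal nerves set heart rate and force through receptors coupled to G proteins. Noradrenaline on beta-1 receptors acts through the stimulatory G protein to raise cyclic AMP, which adenylyl cyclases make, phosphodiesterases break down and protein kinase A (PKA) reads. Acetylcholine on M2 receptors acts through inhibitory G proteins against this path, and noradrenaline on alpha-1 receptors acts through Gq and phospholipase C. PKA is held near its substrates by A-kinase anchoring proteins, and its phosphorylations are removed by protein phosphatase 1, which inhibitor-1 (Ppp1r1a) restrains.

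4 of the 9 hearts went against the male label. In 2 hearts at E18.5d and 2 at P7d the female-specific transcript Xist stood between 58.0 and 97.0 FPKM and 4 Y-linked genes were at 0, while Xist was at most 0.11 FPKM and every Y-linked gene at least 9.74 FPKM in the other 5. Results are therefore also given for those 5 hearts (1 at E18.5d, 3 at P1d, 1 at P7d), a fit with 2 residual degrees of freedom that takes the lone hearts to vary as the P1d hearts do. The steps between low values put the depth at 25.5 to 45.0 fragments per heart in units of 1e6. On 1 kb of effective length, which is exon length less 292 to 328 bases, 1 fragment was worth 0.0222 to 0.0392 FPKM. Hearts of the same stage correlated with r between 0.9781 and 0.9876 over log2 values. The 8 cardiomyocyte markers summed to 21715 to 22466 FPKM at E18.5d and to 27817 to 28833 at P7d, and none of them was at 0 in all hearts. Ryr2, Pln and Tnni3 are among these markers and are also counted below among the targets of PKA. The median log2 change of all 13618 genes tested was -0.06 for P1d against E18.5d, -0.17 for P7d against E18.5d and -0.09 for P7d against P1d, and it lay between -0.02 and 0.01 after scaling by the median of ratios or by quantiles. Small negative changes have to be read against that shift.

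Across the set, mRNA of the alpha-1 and beta-1 receptors rose from E18.5d to P7d, that of Ppp1r1a fell, that of Chrm2 fell from P1d to P7d while that of Akap6 rose, and no change of Adcy5 was called. 8 genes passed the filter of a mean of 1 FPKM over the 9 hearts, and Adra1a did not. At P1d against E18.5d, limma called 2 of the 8 higher, beside 18.4% of all genes tested, and 1 lower, beside 27.6%. At P7d against E18.5d it called 3 higher, beside 12.5%, and 2 lower, beside 36.9%. At P7d against P1d it called 1 higher, beside 15.5%, and 4 lower, beside 28.6%. The 3 comparisons share hearts, so they are not independent of each other. The median log2 change of the 8 genes was 0.16, -0.05 and -0.22 in the same order of comparisons.

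**Figure D1:**
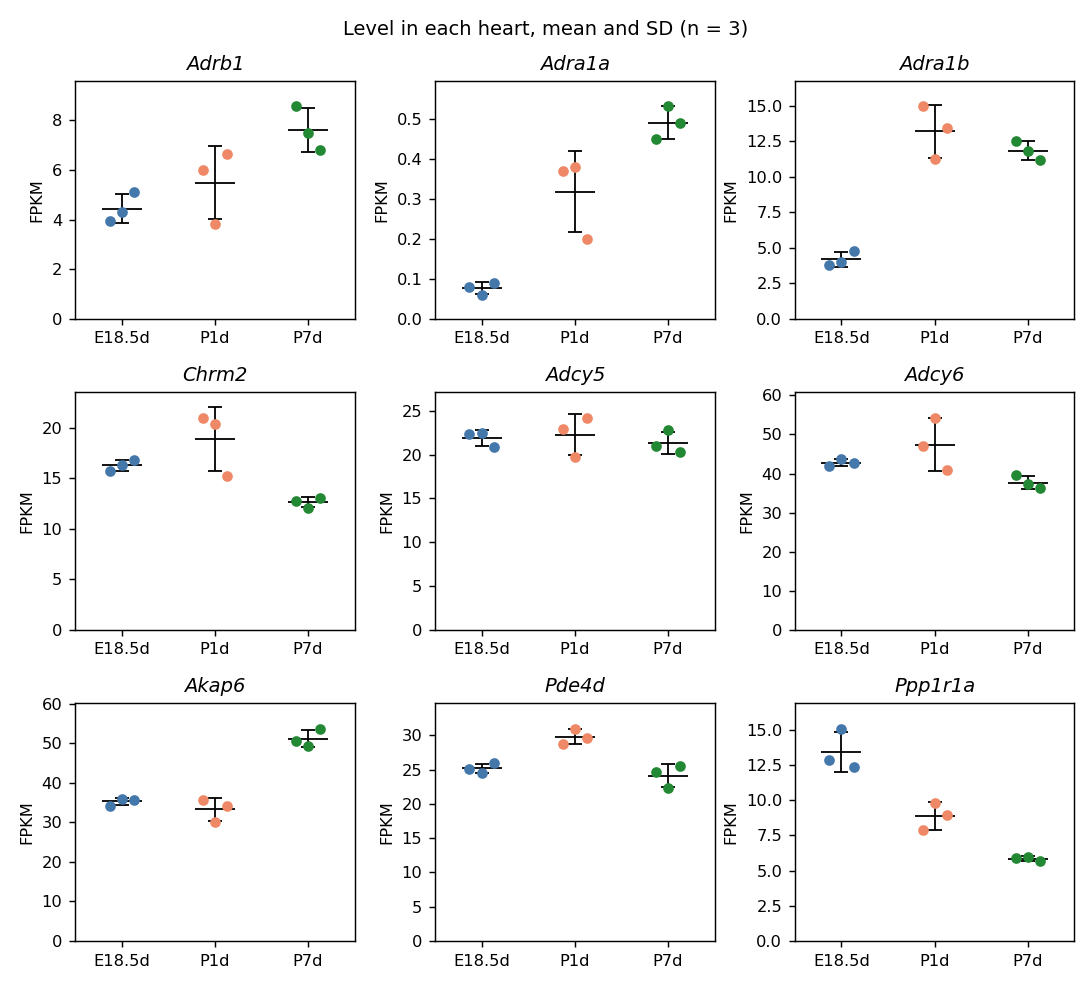
Level of each gene in FPKM (vertical axis, from 0) in the 9 hearts by stage (horizontal axis), where points are hearts and black marks are the mean and SD of 3 hearts. Adra1b stands at 3.77 to 4.76 FPKM in the E18.5d hearts and at 11.18 to 14.94 in all later hearts, Ppp1r1a steps down at each stage, and Akap6 is apart only at P7d.

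Promoter sequences were available for 6 of the 9 genes in RefSeq (GRCm38.p6), and the 250 bases before the start are shown for the receptors that moved and for Akap6, so that genes with opposite courses can be set side by side. The windows are chr19:56721867-56722116 on the plus strand for Adrb1, chr11:43901238-43901487 and chr11:43836490-43836739 on the minus strand for the upstream and the downstream start of Adra1b, chr6:36387834-36388083 on the plus strand for Chrm2 and chr12:52699133-52699382 on the plus strand for Akap6. All are written 5′ to 3′ on the strand of the gene and end at the base before the start, and capitals mark motif matches.
Adrb1: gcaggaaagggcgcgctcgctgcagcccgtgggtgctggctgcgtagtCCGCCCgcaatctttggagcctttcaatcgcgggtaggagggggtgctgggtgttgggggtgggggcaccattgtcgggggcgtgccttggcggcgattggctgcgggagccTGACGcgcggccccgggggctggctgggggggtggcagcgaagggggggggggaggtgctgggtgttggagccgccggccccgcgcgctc
Adra1b, upstream start: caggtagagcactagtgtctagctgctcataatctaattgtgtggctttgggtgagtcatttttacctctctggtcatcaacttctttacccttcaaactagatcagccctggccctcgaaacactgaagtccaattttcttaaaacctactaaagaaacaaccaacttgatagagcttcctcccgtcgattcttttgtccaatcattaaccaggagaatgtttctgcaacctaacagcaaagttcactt
Adra1b, downstream start: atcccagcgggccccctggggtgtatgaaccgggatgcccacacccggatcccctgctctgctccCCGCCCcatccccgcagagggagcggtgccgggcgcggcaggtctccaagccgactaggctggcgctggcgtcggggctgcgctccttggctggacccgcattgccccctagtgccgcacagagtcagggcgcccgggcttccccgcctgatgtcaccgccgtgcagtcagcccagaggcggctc
Chrm2: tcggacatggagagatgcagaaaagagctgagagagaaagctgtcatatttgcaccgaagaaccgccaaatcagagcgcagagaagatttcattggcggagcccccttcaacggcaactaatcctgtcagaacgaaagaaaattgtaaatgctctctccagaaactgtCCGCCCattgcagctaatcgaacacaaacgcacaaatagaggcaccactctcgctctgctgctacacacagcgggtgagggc
Akap6: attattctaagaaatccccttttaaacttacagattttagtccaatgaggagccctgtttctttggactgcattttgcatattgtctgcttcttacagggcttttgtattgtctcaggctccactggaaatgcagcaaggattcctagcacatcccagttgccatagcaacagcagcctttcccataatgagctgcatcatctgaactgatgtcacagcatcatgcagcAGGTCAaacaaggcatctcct

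The search covered both strands and 8 short motifs, namely the cAMP response element TGACGTCA and its core TGACG, which overlap, the nuclear receptor core AGGTCA, the GATA site AGATAA, the TEAD site GGAATG, the GC box GGGCGG, the TATA box TATAAA and the E-box CACGTG. The Adrb1 window holds TGACG starting 90 bases before the start, a motif found in 17.8% of the 32851 windows of the same length, and a GC box, found in 32.7%. A GC box was also present in the Chrm2 window and in the window of the downstream Adra1b start. The Akap6 window holds AGGTCA starting 21 bases before the start, a motif found in 14% of windows, and no motif of the 8 was found before the upstream Adra1b start. GC content was 74% for Adrb1 and 72.8% for the downstream Adra1b start, against 41.6% for the upstream Adra1b start, 43.6% for Akap6, 50% for Chrm2 and a median of 52.4% over all windows. No exon of the GENCODE annotation lies in these windows except that of the noncoding 9330158H04Rik in the window of Chrm2. Of the windows not shown, that of Adcy5, which had no called change, held GC boxes at 78% GC. That of Pde4d (chr13:108653927-108654176) lies inside the gene, before 1 internal start, and overlaps an exon of Pde4d itself. It held a GATA site at 38.8% GC. A match describes the letters only.

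Adrb1 encodes the beta-1 receptor, through which noradrenaline raises rate and force in cardiomyocytes (ENSMUSG00000035283.4, chr19:56722199-56733113, plus strand, GRCm38). Its level was 3.92, 4.31 and 5.09 FPKM in the E18.5d hearts, 5.99, 3.83 and 6.65 in the P1d hearts and 8.56, 7.48 and 6.80 in the P7d hearts. All P7d hearts lay above all others, while the P1d hearts overlapped the E18.5d hearts. The mean was 1.71 times as high at P7d as at E18.5d, a log2 change of (FPKM + 1) of 0.66 ± 0.17 (SE, n = 3 per stage, limma adjusted p = 0.00881). In the 5 Xist-low hearts it was 0.85, with an adjusted p of 0.225 from limma. P1d against E18.5d gave 0.23 ± 0.17 (limma adjusted p = 0.277) and 0.43 with an adjusted p of 0.02 without P1d replicate 2. P7d against P1d gave 0.43 ± 0.17, which missed the threshold in limma (adjusted p = 0.0605) and passed it with 3 of the 4 other scalings and without P1d replicate 3 (0.56, adjusted p = 0.0253).

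Adra1b encodes the alpha-1B receptor, coupled to Gq (ENSMUSG00000050541.14, chr11:43774606-43901210, minus strand, GRCm38). Its level was 3.77, 3.99 and 4.76 FPKM in the E18.5d hearts, 14.94, 11.23 and 13.44 in the P1d hearts and 12.52, 11.79 and 11.18 in the P7d hearts. Every postnatal heart lay above every E18.5d heart, and P1d and P7d overlapped. The means were 3.16 and 2.83 times that of E18.5d, with log2 changes of 1.45 ± 0.11 at P1d (limma adjusted p = 1.21e-05) and 1.31 ± 0.11 at P7d (limma adjusted p = 1.85e-05). P7d against P1d gave -0.14 ± 0.11 (limma adjusted p = 0.326), and 0.0025 after scaling by nuclear protein-coding genes. In the 5 Xist-low hearts the limma changes against E18.5d were 1.50 (adjusted p = 0.027) and 1.44 (adjusted p = 0.0579).

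Adra1a, the gene of the alpha-1A receptor, took the same direction at a far lower level (ENSMUSG00000045875.12, chr14:66635251-66771168, plus strand, GRCm38). It stood at 0.08, 0.06 and 0.09 FPKM in the E18.5d hearts, 0.37, 0.38 and 0.20 in the P1d hearts and 0.45, 0.53 and 0.49 in the P7d hearts, so that no stage overlapped another. These values rest on about 17 to 24 fragments per heart at E18.5d, 50 to 89 at P1d and 138 to 186 at P7d, as estimated from depth and exon length. The mean at P7d was 6.39 times that at E18.5d and the mean at P1d 4.13 times. Fitted with no filter on low values, the change of log2(FPKM + 1) was 0.29 ± 0.06 for P1d (limma adjusted p = 0.00954) and 0.47 ± 0.06 for P7d (limma adjusted p = 0.000923), a scale that understates the change of a gene this low. P7d against P1d gave 0.18 ± 0.06 (limma adjusted p = 0.0643) and was called in the 4 other scalings and without P1d replicate 2 (0.22, adjusted p = 0.0496). With a pseudocount of 0.1 the limma changes were 1.21 and 1.74. In the 5 Xist-low hearts they were 0.31 and 0.45, with adjusted p of 0.285 and 0.253.

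Chrm2 encodes the M2 receptor, the main muscarinic receptor of the heart and the receptor of vagal slowing (ENSMUSG00000045613.9, chr6:36388084-36528414, plus strand, GRCm38). Its level was 15.73, 16.32 and 16.79 FPKM in the E18.5d hearts, 20.99, 20.33 and 15.26 in the P1d hearts and 12.72, 12.06 and 13.08 in the P7d hearts. The P7d hearts lay below all others, and at P1d replicate 3 lay below the E18.5d hearts while the other two lay above them. P7d against P1d gave a log2 change of -0.53 ± 0.11 (limma adjusted p = 0.00333), called in each of the 4 other scalings, with -0.52 and an adjusted p of 0.201 in the 5 Xist-low hearts. P7d against E18.5d gave -0.34 ± 0.11 (limma adjusted p = 0.0233), and this call ended with 3 of the 4 other scalings, where the change was -0.20 to -0.17, in the 5 Xist-low hearts (-0.34, adjusted p = 0.459) and when replicate 2 or 3 of E18.5d, or replicate 1 or 2 of P7d, was left out. P1d against E18.5d gave 0.19 ± 0.11 (limma adjusted p = 0.175), and 0.33 with an adjusted p of 0.00354 without P1d replicate 3.

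The fall of Chrm2 went along with lower sums of atrial markers. The 7 atrial cardiomyocyte markers (Myl7, Myl4, Sln, Nppa, Nr2f1, Nr2f2 and Bmp10) summed to 6578 to 7749 FPKM at E18.5d, 6572 to 6968 at P1d and 3372 to 3595 at P7d, with none at 0 in all hearts. The 4 ventricular markers (Myl2, Irx4, Hey2 and Myl3) summed to 15929 to 17719, 17560 to 20075 and 18414 to 20139 FPKM. Each sum rests mostly on its most abundant genes, and the study counts Nppa among embryonic marker genes. The part of these markers in the result was not tested. The exons of Chrm2 share 142 bases, 2.35% of their length, with the noncoding 9330158H04Rik on the other strand, itself at 6.51 to 17.85 FPKM. Reads that lie within the shared bases cannot be told apart in a library that does not mark strand.

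The other receptors of the family were low. Of 13 adrenergic and muscarinic receptor genes, Chrm2, Adra1b and Adrb1 had a mean of at least 1 FPKM, and at P7d they stood at 12.6 ± 0.517, 11.8 ± 0.671 and 7.61 ± 0.888 FPKM (mean ± SD, n = 3). The ranges of Chrm2 and Adra1b overlapped there, at 12.06 to 13.08 and 11.18 to 12.52, and both lay above that of Adrb1, whereas at E18.5d Adra1b and Adrb1 overlapped and Chrm2 was far above both. Adra1d, an alpha-1 receptor of smooth muscle, ranged from 0.65 to 1.56 FPKM over the 9 hearts with overlapping stages.

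Adra2b, an alpha-2 receptor coupled to inhibitory G proteins, had another course. It stood at 0.31 to 0.35 FPKM at E18.5d, 0.62 to 0.71 at P1d and 0.30 to 0.35 at P7d, and with no filter limma called it higher at P1d than at E18.5d (0.33, adjusted p = 0.00178) and lower at P7d than at P1d (-0.33, adjusted p = 0.00197). The P1d hearts were apart from both other stages. Chrm3, the M3 receptor, ranged from 0.53 to 1.02 FPKM with no change called. Adrb3, Adra2a, Adra2c, Chrm1, Chrm4 and Chrm5 were at most 0.20 FPKM in every heart, and none of their changes was called.

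**Figure D2:**
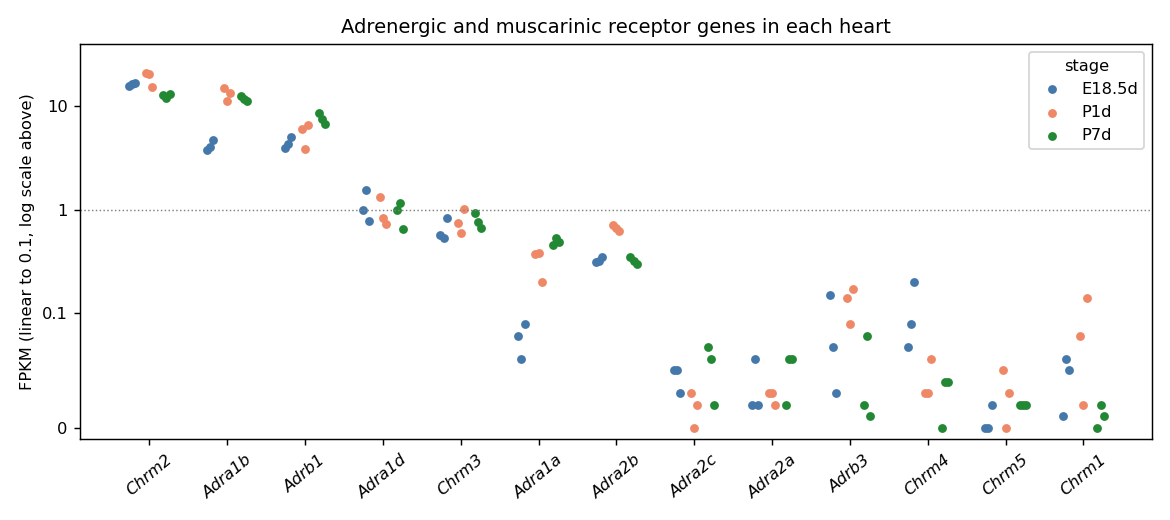
Level of 13 adrenergic and muscarinic receptor genes in FPKM (vertical axis, linear up to 0.1 and logarithmic above) in each of the 9 hearts, coloured by stage and ordered by their mean at P7d, with a dotted line at 1 FPKM. Chrm2, Adra1b and Adrb1 lie above 3 FPKM in every heart, and Adra1a rises from under 0.1 to about 0.5 FPKM.

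Ratios of genes within a heart were compared by exact two-sided permutation tests of 3 hearts against 3, which cannot give a p under 0.1, with Benjamini-Hochberg adjustment over 15 tests, of which 12 are reported. The FPKM of Chrm2 was 3.3 to 4.01 times that of Adrb1 at E18.5d, 2.29 to 5.31 times at P1d and 1.49 to 1.92 times at P7d. The P7d hearts were below all others in this ratio of muscarinic to beta-1 receptor (difference in log2 ratio of -1.01 against E18.5d, exact p = 0.1, adjusted p = 0.25). The ratio of Pde4d to Pde3a was 1.61 to 1.79 at E18.5d and 1.17 to 1.27 at P7d (difference -0.47, exact p = 0.1, adjusted p = 0.25), again without overlap.

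The ratio of Adra1a to Adra1b in FPKM was 0.015 to 0.0212 at E18.5d, 0.0149 to 0.0338 at P1d and 0.0359 to 0.045 at P7d. Its log2 ratio with 1 FPKM added to each gene moved the other way (-0.85, exact p = 0.1, adjusted p = 0.25) and with 0.1 added it was 0.25, so no direction is given for it. Adcy5 was 0.362 to 0.612 times as high as Adcy6 over the 9 hearts, with overlapping stages.

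Adcy5 and Adcy6 encode the adenylyl cyclases that predominate in cardiomyocytes, and both are inhibited by inhibitory G proteins and by calcium. Adcy5 (ENSMUSG00000022840.8, chr16:35154877-35305738, plus strand, GRCm38) was at 22.38, 22.47 and 20.87 FPKM in the E18.5d hearts, 22.93, 19.68 and 24.21 in the P1d hearts and 21.02, 22.75 and 20.30 in the P7d hearts. All stages overlapped, and the limma changes of 0.02, -0.04 and -0.05 (SE 0.08 each) had adjusted p of 0.872, 0.743 and 0.619. Their signs turned with the scaling of the columns, and no alternative called any of them.

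Adcy6 (ENSMUSG00000022994.8, chr15:98589973-98610076, minus strand, GRCm38) was at 41.98, 43.78 and 42.64 FPKM in the E18.5d hearts, 47.02, 54.32 and 40.92 in the P1d hearts and 39.54, 37.20 and 36.33 in the P7d hearts. The P7d hearts lay below all others, and P1d and E18.5d overlapped. P7d against P1d gave a log2 change of -0.32 ± 0.09 (limma adjusted p = 0.0197), which ended with all 4 other scalings (-0.21 to -0.16), with a covariate for Xist (-0.27, adjusted p = 0.118), in the 5 Xist-low hearts (-0.25, adjusted p = 0.422) and without P7d replicate 2 or 3. P7d against E18.5d gave -0.18 ± 0.09 (limma adjusted p = 0.129), and the same change was called with only these 2 stages in the fit (adjusted p = 0.0202) and without P1d replicate 2 or 3 (adjusted p = 0.0425 and 0.0473). P1d against E18.5d gave 0.14 ± 0.09 (limma adjusted p = 0.25), and 0.23 with an adjusted p of 0.029 without P1d replicate 3.

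The other cyclases stood at lower levels. Adcy7 was at 1.78 to 1.84 FPKM at E18.5d, 1.89 to 2.02 at P1d and 5.73 to 5.98 at P7d, with a log2 change of 1.28 ± 0.08 for P7d against E18.5d (limma adjusted p = 2.48e-06). Adcy9 went from 3.73 to 4.32 FPKM at E18.5d to 6.83 to 7.26 at P7d (0.68, limma adjusted p = 0.000146), most of it by P1d at 5.99 to 7.13. Adcy1, a calmodulin-activated cyclase, fell from 1.57 to 1.78 FPKM to 0.84 to 1.03 (-0.49, limma adjusted p = 0.00374). Adcy3 and Adcy4 were lower at P1d than at either other stage, with log2 changes against E18.5d of -0.47 (limma adjusted p = 0.00631) and -0.19 (limma adjusted p = 0.0491), the latter called in 1 of the 4 other scalings. Adcy3 shares 22.1% of its exon length with Cenpo on the other strand, at 2.14 to 5.94 FPKM against 1.56 to 3.18 for Adcy3. Reads that lie within this shared part cannot be told apart either. Adcy2, Adcy8 and Adcy10 were at most 0.82 FPKM in every heart.

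Akap6 encodes mAKAP, which anchors PKA and phosphodiesterase at the nuclear envelope of cardiomyocytes (ENSMUSG00000061603.7, chr12:52699383-53155599, plus strand, GRCm38). Its level was 34.22, 35.86 and 35.74 FPKM in the E18.5d hearts, 35.70, 30.03 and 34.10 in the P1d hearts and 50.52, 49.36 and 53.66 in the P7d hearts. The P7d hearts lay above all others, and the earlier stages overlapped. Its mean at P7d was 1.45 times that at E18.5d and 1.54 times that at P1d, with log2 changes of 0.52 ± 0.07 (limma adjusted p = 0.000308) and 0.61 ± 0.07 (limma adjusted p = 0.000185), and P1d against E18.5d gave -0.08 ± 0.07 (limma adjusted p = 0.35). In the 5 Xist-low hearts the limma changes were 0.48 (adjusted p = 0.171) and 0.59 (adjusted p = 0.0891). Among 10 anchoring protein genes, 9 were tested, and at P7d against E18.5d Akap6 and the mitochondrial Akap1 (0.18, limma adjusted p = 0.0198) were higher, while Akap11 (-0.41, limma adjusted p = 0.000953), Akap8 (-0.36, limma adjusted p = 0.012) and Akap10 (-0.28, limma adjusted p = 0.0171) were lower. Of all genes tested 12.5% were higher and 36.9% lower in this comparison. Akap8 and Akap10 were called lower in none of the 4 other scalings.

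Pde4d encodes a cyclic AMP phosphodiesterase that is found with beta receptors and with the ryanodine receptor (ENSMUSG00000021699.17, chr13:108449948-109953461, plus strand, GRCm38). Its level was 25.08, 24.59 and 25.91 FPKM in the E18.5d hearts, 28.77, 30.98 and 29.68 in the P1d hearts and 24.60, 22.35 and 25.51 in the P7d hearts. The P1d hearts lay above both other stages, which overlapped each other. P1d against E18.5d gave a log2 change of 0.23 ± 0.06 (limma adjusted p = 0.014), which ended with equal-sum columns (0.07), with the Xist covariate (0.24, adjusted p = 0.0617), in the 5 Xist-low hearts (0.27, adjusted p = 0.187) and without E18.5d replicate 2. P7d against P1d gave -0.29 ± 0.06 (limma adjusted p = 0.00499), which ended with equal-sum columns, with the nuclear protein-coding scaling (-0.17 and -0.15) and in the 5 Xist-low hearts (-0.27, adjusted p = 0.212). P7d against E18.5d gave -0.06 ± 0.06 (limma adjusted p = 0.456), whose sign turned in 3 of the 4 other scalings.

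Among phosphodiesterase genes more were called higher than lower. Of 16 such genes 15 were tested, and at P7d against E18.5d 7 were higher and 1 lower, beside 12.5% and 36.9% of all genes tested, with a median log2 change of 0.27 against -0.17 over all genes. The 4 other scalings called 7 or 8 higher and 1 lower. Over all genes tested, higher calls were 1706 as deposited and 1267 to 2905 in the 4 other scalings. Lower calls were 5025 as deposited and 2848 to 4444 in those scalings. Pde2a, a phosphodiesterase stimulated by cyclic GMP, went from 11.18 to 12.60 FPKM at E18.5d to 24.14 to 24.32 at P7d (0.98 ± 0.10, limma adjusted p = 8.27e-05), and Pde4dip, the anchoring protein myomegalin, listed with this group but not a phosphodiesterase and left out of its counts, was also higher (0.80, limma adjusted p = 0.00098). Pde3a, the cardiac target of milrinone, rose from 14.01 to 15.32 to 18.99 to 21.08 FPKM (0.41, limma adjusted p = 0.000929), and the gene that fell was Pde3b (-0.53, limma adjusted p = 0.00182).

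Ppp1r1a encodes inhibitor-1, which blocks protein phosphatase 1 once PKA has phosphorylated it (ENSMUSG00000022490.6, chr15:103530279-103538003, minus strand, GRCm38). Its level was 12.86, 15.07 and 12.36 FPKM in the E18.5d hearts, 7.87, 9.80 and 8.93 in the P1d hearts and 5.88, 5.99 and 5.68 in the P7d hearts. No stage overlapped another. Its mean at P7d was 0.436 times that at E18.5d, and the log2 changes were -0.55 ± 0.09 for P1d against E18.5d (limma adjusted p = 0.00131), -1.07 ± 0.09 for P7d against E18.5d (limma adjusted p = 2.53e-05) and -0.52 ± 0.09 for P7d against P1d (limma adjusted p = 0.00195). All 3 calls held in the 4 other scalings. In the 5 Xist-low hearts the limma changes were -0.71, -1.22 and -0.52, with adjusted p of 0.0666, 0.06 and 0.141.

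Its relative Ppp1r1b, the inhibitor DARPP-32 known from striatal neurons, fell further. It was at 18.75 to 20.35 FPKM at E18.5d, 8.43 to 10.21 at P1d and 2.88 to 3.61 at P7d, a log2 change of -2.31 ± 0.09 for P7d against E18.5d (limma adjusted p = 2.56e-07). Of the 8 genes of protein phosphatase 1 and its inhibitors, 4 were lower and 1 higher in that comparison, beside 36.9% and 12.5% of all genes tested. The catalytic subunits Ppp1cc (-0.68, limma adjusted p = 1.15e-05) and Ppp1cb (-0.33, limma adjusted p = 0.00079, called in 2 of the 4 other scalings) were among the lower ones. Ppp1ca, also a catalytic subunit, was not called (-0.14, limma adjusted p = 0.134). The glycogen-targeting subunit Ppp1r3a was the higher one (0.35, limma adjusted p = 0.014), and Ppp1r2, inhibitor-2, gave -0.01 (limma adjusted p = 0.949).

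**Figure D3:**
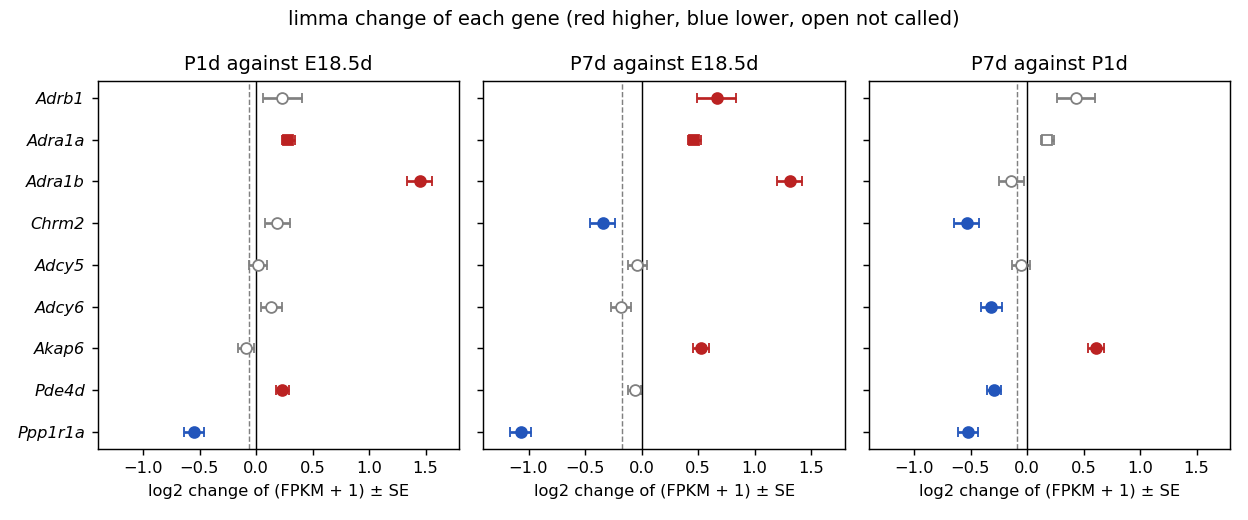
Change of log2(FPKM + 1) with its SE (horizontal axis) for the 9 genes in the 3 comparisons, where red is called higher, blue is called lower and open grey is not called by limma at an adjusted p of 0.05; squares mark Adra1a, fitted with no filter, and the dashed line is the median of all genes tested. Adra1b lies at 1.45 and 1.31 against E18.5d and at -0.14 between P1d and P7d, and Ppp1r1a is called lower in all 3 comparisons.

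**Figure D4:**
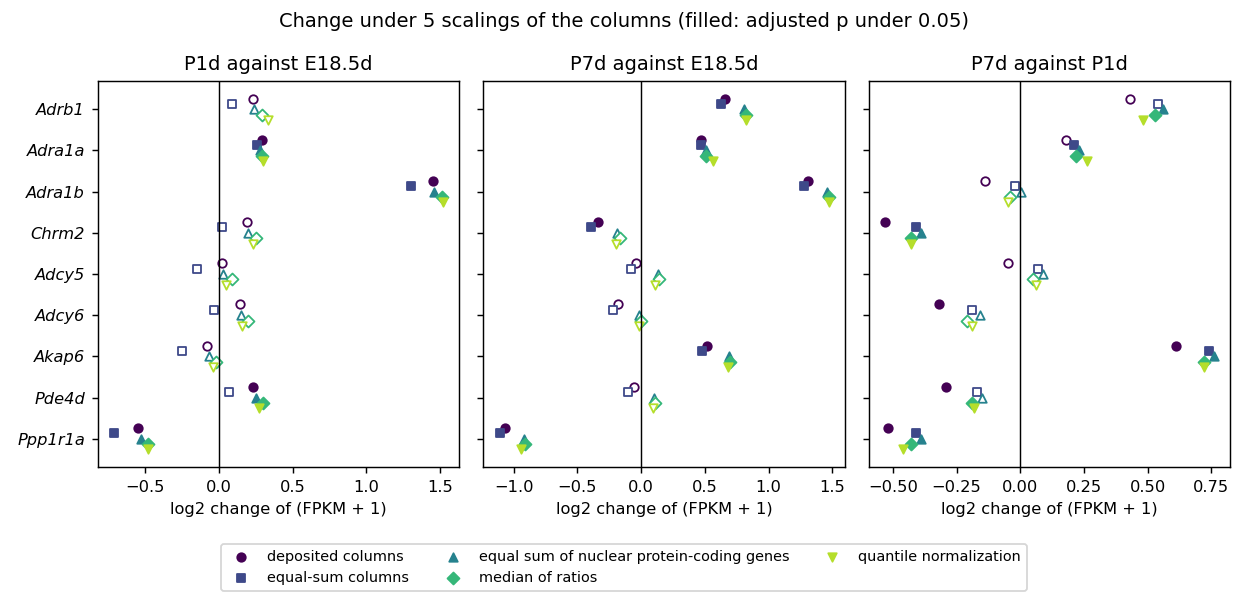
Change of log2(FPKM + 1) (horizontal axis, with its own range in each panel) of the 9 genes under the deposited columns and 4 other scalings, filled where limma gave an adjusted p under 0.05. Adra1b and Ppp1r1a keep their calls against E18.5d in every scaling, while the small changes of Adcy5 lie on both sides of 0 and the call of Adcy6 for P7d against P1d ends in the other 4.

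Outside the 9 genes the pathway list holds 122 genes, of which 98 were tested. limma called 22 of them higher and 19 lower at P1d against E18.5d, 25 higher and 28 lower at P7d against E18.5d, and 21 higher and 26 lower at P7d against P1d. Over all genes tested the shares called higher and lower were 18.4% and 27.6%, 12.5% and 36.9%, and 15.5% and 28.6% in the same order. On the transmitter side, 4 of 5 tested genes fell from E18.5d to P7d, beside 36.9% of all genes, among them Ddc, the decarboxylase that makes dopamine (37.80 to 42.34 FPKM against 76.81 to 85.42, log2 change -0.995, limma adjusted p = 3.87e-05), and Bche, butyrylcholinesterase (-0.59, limma adjusted p = 0.000389). Th, which sets the rate of catecholamine synthesis, was at most 0.71 FPKM in any heart, Dbh at most 1.25, and Chat, which makes acetylcholine, at most 0.07. Dbh, Slc18a3 and Slc5a7 had means under 1 FPKM and were fitted with no filter, and their fragment numbers were not estimated. In that fit limma called Dbh higher at P7d than at P1d (0.46, adjusted p = 0.0462) and Slc18a3 lower (-0.14, adjusted p = 0.0322). Slc5a7 was called lower than at E18.5d both at P1d (-0.23, limma adjusted p = 0.0193) and at P7d (-0.35, limma adjusted p = 0.00257). The 6 neuron markers summed to 5.56 to 9.79 FPKM at E18.5d, 4.28 to 4.47 at P1d and 2.77 to 4.16 at P7d with none at 0 in all hearts, and their part in these values was not tested.

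Of 13 G protein genes tested, limma called 7 lower and 0 higher for P7d against E18.5d, with 1 higher at an unadjusted p under 0.05. More lower than higher calls were also made over all genes (36.9% and 12.5%). The nuclear protein-coding, median-of-ratios and quantile scalings called 4 of the G protein genes lower and 2 or 3 higher. Over all genes these scalings called 2848 to 2937 lower and 2752 to 2905 higher, beside 5025 and 1706 as deposited. Gng2 (-1.50, limma adjusted p = 0.000448) and Gng5 (-1.06, limma adjusted p = 4.14e-06), which encode gamma subunits, were lower in each of the 4 other scalings. Gnas, the stimulatory alpha subunit, was at 526.64 to 563.08 FPKM at E18.5d and 493.23 to 521.42 at P7d (-0.12 ± 0.06, limma adjusted p = 0.0945). The inhibitory Gnai1 (-0.59, limma adjusted p = 0.000363) and Gnai3 (-0.61, limma adjusted p = 0.000643) were lower. Gnai2, also inhibitory, was not called (-0.03, limma adjusted p = 0.713). Gnaq, which serves the alpha-1 receptors, gave 0.02 (limma adjusted p = 0.87).

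Among 12 genes for receptor kinases, arrestins and RGS proteins, 4 rose and 1 fell from E18.5d to P7d, beside 12.5% and 36.9% of all genes. The equal-sum scaling called 3 higher, the other scalings 7 or 8, and each called 1 lower. Over all genes tested, equal-sum columns called 1267 higher and 4444 lower, beside 1706 and 5025 as deposited. The other scalings called 2752 to 2905 higher and 2848 to 2937 lower. The scaled counts of this group have to be read against that shift. Rgs5, an RGS protein of pericytes, rose from 28.89 to 45.14 FPKM to 98.89 to 105.87 (1.56 ± 0.14, limma adjusted p = 2.84e-05). The 6 smooth muscle and pericyte markers summed to 739 to 904 FPKM at E18.5d and 626 to 735 at P7d, none at 0 in all hearts, and their part was not tested. Rgs2, which restrains Gq, was higher (0.85, limma adjusted p = 8.64e-05), and Grk3, a receptor kinase, was lower (-0.56, limma adjusted p = 0.000342). Grk2, the main kinase of the beta receptors, gave 0.21 (limma adjusted p = 0.246).

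Of 12 targets of PKA and of muscarinic G proteins, 6 rose and 2 fell from E18.5d to P7d, beside 12.5% and 36.9% of all genes, and the 4 other scalings called 4 to 7 higher and 1 lower. Ryr2, the calcium release channel, went from 168.48 to 176.67 FPKM to 276.25 to 294.56 (0.71 ± 0.06, limma adjusted p = 2.25e-05), and Pln, phospholamban, from 528.29 to 570.25 to 863.64 to 935.20 (0.70 ± 0.06, limma adjusted p = 1.74e-05). The pacemaker channel Hcn4 (-0.57, limma adjusted p = 0.00215) and Kcnj5 (-0.29, limma adjusted p = 0.0103), a subunit of the potassium channel opened by M2 receptors, were lower, the latter in none of the 4 other scalings. Of 11 tested cyclic AMP effectors 2 were higher, the PKA regulatory subunit Prkar1a (0.37, limma adjusted p = 0.00344) and Popdc2 (0.35, limma adjusted p = 0.00351), and 2 were lower, the subunits Prkar2b (-0.57, limma adjusted p = 0.00373) and Prkar1b (-0.42, limma adjusted p = 0.0471). Beside these counts, 12.5% of all genes were higher and 36.9% lower. The nuclear protein-coding, median-of-ratios and quantile scalings called 5 of these effectors higher and 1 lower. Of 10 alpha-1 effectors, Prkce was higher (0.34, limma adjusted p = 0.0233) and 4 were lower, led by Prkd1 (-0.52, limma adjusted p = 0.000619) and Prkcd (-0.45, limma adjusted p = 0.00176). These shares, 10% higher and 40% lower, were near the 12.5% and 36.9% of all genes. The same 3 scalings called 3 of the alpha-1 effectors higher and 2 or 3 lower. Prkca, among the 4 lower ones, was called lower in none of the 4 other scalings. Over all genes tested, these 3 scalings called 2752 to 2905 higher and 2848 to 2937 lower, beside 1706 and 5025 as deposited. Equal-sum columns called 1267 higher and 4444 lower. The scaled counts of PKA targets, cyclic AMP effectors and alpha-1 effectors have to be read against that shift.

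**Figure D5:**
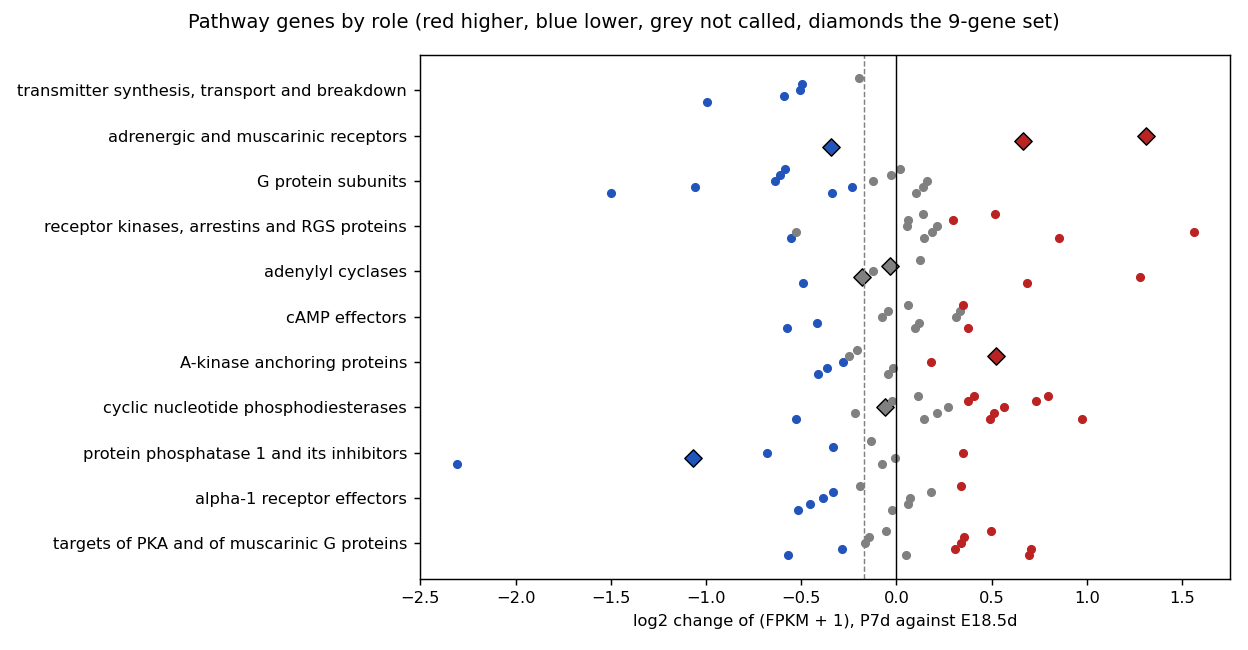
Change of log2(FPKM + 1) for P7d against E18.5d (horizontal axis) of the 106 tested pathway genes by role (vertical axis), where each point is a gene coloured by its limma call, diamonds are genes of the 9-gene set and the dashed line is the median of all genes tested. In the phosphodiesterase row, which includes Pde4dip, 8 genes are called higher and 1 lower, and of the G protein subunits 7 are called lower and 0 higher, with 1 higher at an unadjusted p under 0.05.

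The genes with the most similar course were ranked by Pearson r of log2 values over the 9 hearts among 13617 others, which share libraries and stages, so r describes them only. Closest to Adra1b were Pln (r = 0.991) and Angptl4 (0.988), and closest to Adrb1 were 6430571L13Rik (0.968) and Tcf15 (0.952). Chrm2 was followed by Igf1r (0.988) and Amotl1 (0.985), Adcy6 by Lipa (0.989) and Ncoa2 (0.988), and Adcy5 by P3h4 (0.920) and Lrrc51 (0.914). Akap6 was followed by Shank3 (0.990) and Galnt17 (0.988), Pde4d by B3gnt8 (0.985) and Elf2 (0.981), and Ppp1r1a by Cox8a and Armh4 (0.988 each).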

How the data were processed

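Total RNA of whole hearts (Trizol) was made into libraries with a kit that does not mark strand. The submitters' notes name STAR and the GRCm38 (mm10) build; the counting tool and annotation are not given in the sources used here. The authors deposited FPKM values with 2 decimals, 1 table with a column per heart; no counts were used. Gene models and exon overlaps came from GENCODE M21, which held 48144 of the 48820 identifiers.

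The 13618 genes whose mean over the 9 hearts reached 1 FPKM were tested as log2(FPKM + 1) with limma 3.58.1 (R 4.3.3): 1 fit of all 9 hearts with stage as factor, empirical Bayes with trend, and Benjamini-Hochberg adjustment over all genes tested, with a threshold of 0.05. SE is the moderated standard error of limma. Fold values are ratios of mean FPKM. Nothing in the labels states separate litters, so p-values measure the spread between these hearts. The fits and the depth estimate, which looks for the depth at which low values become whole fragments (tolerance 0.1, 80.9 to 85.9% whole), were tested on simulated data. Alternatives were another pseudocount (0.1), filters, 4 column scalings, no trend, only the stages compared, a replicate block, an Xist covariate, only Xist-low hearts and leaving out each heart. Replicate numbers did not pair the hearts. Adra1a, under the filter, was fitted with none, an addition made after seeing the data. Named genes were all 9, all receptors and cyclases, in each other role group the 2 with the highest rise and the 2 with the deepest fall at P7d against E18.5d among called genes, and the 2 nearest by r. A few others (Pde3a, Akap10, Ppp1ca, Ppp1cb, Ppp1cc, Ppp1r2, Th, Dbh, Chat, Slc5a7, Slc18a3, Gnas, Gnai1, Gnai2, Gnai3, Gnaq, Grk2) are named for their role, after their values were seen, as are genes whose calls ended in another scaling. Pde4dip was left out of the phosphodiesterase counts for its function, also after its values were seen. Some planned genes and a ratio are not reported here and were left out of the pathway counts. The members and lists were chosen with earlier results of these data known.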

Additional observations from a re-analysis of the deposited data

How the results depend on the processing

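Changes against E18.5d of Adra1b, Adra1a and Ppp1r1a, and the changes of Akap6 involving P7d, kept their direction in every alternative run, and their calls ended at most in the 5 Xist-low hearts. With those hearts the numbers called of the 8 genes that passed the filter (Adra1a is not in the counts) were 1 higher and 0 lower at P1d against E18.5d, 0 and 0 at P7d against E18.5d and 0 and 0 at P7d against P1d. In the same order the pathway list without them gave 2 and 2, 1 and 2, and 2 and 2, and all genes gave 239 and 584, 93 and 101, and 75 and 104, in a fit with 2 residual degrees of freedom.

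With equal-sum columns, 1 of the 8 genes was higher at P1d against E18.5d and 2 were lower at P7d against P1d, the pathway list gave 10 higher and 10 lower in the same comparisons, and all genes gave 1175 higher at P1d against E18.5d and 1728 lower at P7d against P1d. With an equal sum of nuclear protein-coding genes, 1 gene was lower at P7d against E18.5d, and 2 were higher and 2 lower at P7d against P1d. The pathway list then gave 18 lower at P7d against E18.5d and 32 higher and 14 lower at P7d against P1d, and all genes gave 2752 higher and 2871 lower, and 3293 higher and 2234 lower. With the median of ratios, 1 gene was lower at P7d against E18.5d and 2 higher at P7d against P1d, the pathway list gave 18 lower at P7d against E18.5d, and all genes gave 2905 higher and 2848 lower there. With quantile normalization the counts of the 8 genes were the same 1 and 2, the pathway list gave 39 higher at P7d against E18.5d and 17 lower at P7d against P1d, and all genes gave 2889 higher and 2937 lower at P7d against E18.5d. Higher calls made up 25.3% of calls at P7d against E18.5d as deposited and 50.5% with the median of ratios, 35.1% and 52.5% at P7d against P1d, and 40% and 50.3% at P1d against E18.5d. With equal-sum columns they made up 20% at P1d against E18.5d and 56% at P7d against P1d. With the Xist covariate, 1 gene was higher at P1d against E18.5d, the pathway list gave 14 higher there and 13 higher and 17 lower at P7d against P1d, and all genes gave 1607 higher at P1d against E18.5d and 2438 lower at P7d against P1d. The cause was not tested for any of these.

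Signs turned for changes that were not called. Adcy5 gave -0.15 (equal sum) and -0.02 (Xist-low hearts) at P1d against E18.5d, 0.13, 0.14 and 0.11 (nuclear protein-coding, median of ratios, quantile) at P7d against E18.5d, and 0.07, 0.09, 0.05 and 0.06 (equal sum and those 3) at P7d against P1d. Without single hearts it ranged from -0.04 to 0.10 at P1d against E18.5d, with -0.01 and -0.0039 among the turned values, and from -0.14 to 0.01 at P7d against P1d. Adcy6 gave -0.03 at P1d against E18.5d with equal-sum columns, Adra1b gave 0.0025 at P7d against P1d with the nuclear protein-coding scaling, and Pde4d gave 0.10, 0.11 and 0.09 (nuclear protein-coding, median of ratios, quantile) and 0.00056 (Xist-low hearts) at P7d against E18.5d.

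Leaving out single hearts gave 1 to 4 genes higher at P1d against E18.5d, 1 to 3 lower at P7d against E18.5d and 1 to 2 higher at P7d against P1d. It gave log2 ratio differences of -0.28 to 0.07 for Adcy5 to Adcy6, -0.30 to 0.23 for Chrm2 to Adrb1 and -0.08 to 0.01 for Pde4d to Pde3a at P1d against E18.5d, each of which crosses 0. A pseudocount of 0.1 gave 0.25 for Adra1a to Adra1b at P7d against E18.5d. The Xist-low hearts gave -0.99 for Adra1a to Adra1b, 0.05 for Adcy5 to Adcy6 and -1.18 for Chrm2 to Adrb1 at P7d against E18.5d, and 0.02 for Pde4d to Pde3a at P1d against E18.5d. With the replicate block, 2 of the 8 genes were higher and 1 lower at P1d against E18.5d, 3 and 2 at P7d against E18.5d and 1 and 4 at P7d against P1d, and no call of the 9 genes changed. Counts over all genes moved by at most 1.5 times without a single heart or with the replicate block. With all 9 hearts, 18.4% of all genes were higher and 27.6% lower, then 12.5% and 36.9%, and 15.5% and 28.6%, in that order. Deviations of same-numbered hearts correlated at -0.05 to 0.11, above 0.1 in 1 of 9 pairs, so the hearts share only a number. No other alternative moved a count of the 8 genes by over 1.5 times. Of the 53 pathway genes called at P7d against E18.5d, 36 kept their call in the 4 other scalings. How many of all called genes kept theirs was not counted. Lower calls over all genes were 5025 as deposited and 2848 to 4444 in the 4 other scalings, and higher calls 1706 and 1267 to 2905. Among the 53, the call ended in 1 of the 4 scalings for 7 genes (Akap1, Arrb2, Cacnb2, Ppp1r3a, Prkar1a, Prkce and Rrad), in 2 for Itpr2 and Ppp1cb, in 3 for Gnao1, Gnb1, Gnb5 and Prkar1b, and in all 4 for Akap8, Akap10, Kcnj5 and Prkca. Depth limits Adra1a at E18.5d (17 to 24 fragments) and the receptors at no more than 0.20 FPKM in every heart. For the latter no change was called, and no limit of detection was estimated.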

Other observations

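Transcripts of other organs differed between hearts of the same stage. The 5 lung epithelium markers ranged in sum from 1.5 to 137 FPKM (E18.5d), from 0.23 to 221 (P1d) and up to 0.27 (P7d), and the 4 liver markers reached 29.2 FPKM at P1d. The 6 erythroid markers ranged from 8418 to 22746 FPKM (E18.5d), 12731 to 24726 (P1d) and 8550 to 10409 (P7d). The 6 fibroblast markers summed to 1221 to 1283 FPKM, 1079 to 1460 and 1915 to 1935 in the same order, the 6 endothelial markers to 342 to 375, 388 to 426 and 441 to 459, the 5 adipocyte markers to 248 to 258, 480 to 618 and 363 to 426, and the 5 macrophage markers to 36.6 to 46.5, 46.2 to 67.6 and 48.8 to 53.4. The 5 Schwann cell markers summed to 2.99 to 5.64 FPKM at E18.5d and 2.9 to 3.32 at P7d, and the 5 thymus markers to at most 0.7 in any heart.

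Some pathway genes share exon sequence with other annotated genes, so their values are less certain. Pde2a shares 64.3% of its exon length with Gm45837, listed at 0 FPKM, Pln shares 59.6% with Gm47644, Gng2 shares 20.4% with Gm48283 and Ppp1r1b shares 15.7% with 1700003D09Rik, itself at no more than 0.26 FPKM. Ppp1cb shares 17.5% with Gm43312, at 0.61 to 1.97 FPKM, and Gnas shares 13.1% with Gm20721, at 0 to 0.96 FPKM, and 8.83% with Nespas, at 1.11 to 4.35 FPKM. Adcy6 shares 8.92% with Gm29331 on the other strand, listed at 0 FPKM.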
